A study of Mus musculus with 15 samples.

Results

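The effect of losing Cebpa and Cebpb was compared between 2 independently derived clones of MLL-ENL-transformed mouse fetal liver cells, named C1 and C2. The quantity of interest was a difference of differences for each gene: dKO minus WTFL in C2, less dKO minus WTFL in C1, on the scale log2(normalized reads + 1). It used 12 of the 15 RNA-seq libraries, 3 in each of 4 groups, and covered 12673 genes that reached 10 normalized reads in 3 or more libraries, of 53379 genes in the table. WTFL cells carried unrecombined floxed alleles of both genes (Cebpa fl/fl, Cebpb fl/fl) and the retroviral MLL-ENL oncogene, and were grown with IL-3. The dKO cells (Cebpa KO, Cebpb KO) were obtained from such floxed clones by repeated treatment with TAT-Cre, a cell-permeable recombinase, and also carried a GFP vector that the WTFL libraries lacked, so the deletion and that vector cannot be told apart. They were rare survivors that grew out after a growth crisis. The study describes each clone before and after the deletion, and partly deleted clones were pooled before the last treatment. The dKO clones came from different mice, and each group was 1 line, with RNA taken 3 times from each line, so clone, mouse and line cannot be told apart and p-values measure the spread between samplings of a line, which may be technical. The 3 libraries of C1 dKO cells complemented with the LAP* isoform of C/EBPβ entered the fit for the estimate of the spread. They also counted in the filter of 10 normalized reads in 3 or more libraries, which used all 15 libraries.

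C/EBPα and C/EBPβ are leucine zipper transcription factors that drive myeloid differentiation. C/EBPα is needed for the step from common progenitors to granulocyte and monocyte progenitors, and C/EBPβ serves in granulopoiesis under stress and in macrophages. C/EBPε, a further member of the family, directs the late granule program of neutrophils and eosinophils. MLL-ENL joins a chromatin regulator to an elongation factor partner and keeps Hoxa genes active in progenitors.

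Reads on genes ran from 9212237 to 13613500 in the 12 libraries, and log2 levels of libraries of a group had a Pearson correlation of 0.981 to 0.992 across genes. Cebpa (chromosome 7, 35119293 to 35121928, mm10) had 1437, 964 and 903 normalized reads in the C1 WTFL libraries and 1653, 2267 and 1969 in the C2 WTFL libraries. Cebpb (chromosome 2, 167688915 to 167690418) had 1559, 1411 and 1394 and 1353, 1634 and 1413. Both genes were at 0 in all 6 dKO libraries, so the targeted genes matched the labels. Cebpe (chromosome 14, 54710360 to 54712174) was 5.17-fold higher in dKO cells of C1 and 4.29-fold higher in those of C2 (adjusted p = 8.0e-11 and 3.6e-10, limma), and these effects differed by -0.28 on the log2 scale (95% interval -0.58 to 0.03, adjusted p = 0.17, limma). Elane, a granule protease that marks granulocyte progenitors, was high throughout, from 37651 ± 2633 in C1 WTFL to 71472 ± 4234 in C2 dKO cells. Of 8 hepatocyte markers and 8 stromal markers, 1 each was expressed enough to be tested. The Y-linked gene Ddx3y had 1050.2 to 1561 normalized reads in the 6 C1 libraries and at most 1 in the 6 C2 libraries, so WTFL and dKO libraries of a clone matched in this gene.

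The effect of the double knockout differed between the clones for 3720 genes, 29.4% of those tested, by a limma test of the difference itself with Benjamini-Hochberg adjustment and a threshold of 0.05. It was more positive in C2 for 1910 genes (15.1%) and more positive in C1 for 1810 (14.3%). For comparison, 37% of the genes were called between dKO and WTFL cells in C1 (17.1% higher and 19.9% lower) and 37.6% in C2 (17.4% higher and 20.1% lower). The WTFL lines of the clones already differed at 41% of the genes (19.7% higher and 21.3% lower in C2) and the dKO lines at 47.7% (22.8% and 24.9%). With an absolute difference of at least 1 on the log2 scale also required, 1661 genes differed in effect.

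Genes were then sorted by how the clones responded. An alike response, called in both clones in the same direction with no difference called, was found for 510 genes that rose (4.02% of those tested) and 787 that fell (6.21%). The 95% interval of the difference lay within 1 log2 unit of 0 for 903 of these 1297 genes, so for the others the data did not bound the difference that closely. A further 211 genes rose (1.66%) and 273 fell (2.15%) in both clones by amounts that differed. A response in 1 clone, with the difference called, was found in C1 for 628 genes that rose and 628 that fell (4.96% each). In C2 alone 695 rose (5.48%) and 614 fell (4.84%). Opposite responses were seen for 269 genes that rose in C1 and fell in C2 (2.12%) and 251 with the reverse (1.98%). For 2279 genes (18%) a single clone was called but the difference was not, which does not show a clone-dependent response, and 151 genes (1.19%) had a difference with neither clone called. The other 5377 genes (42.4%) were called in none of these tests. The effects in the clones had a Pearson correlation of 0.43 and a Spearman correlation of 0.33 across the tested genes, which are not independent replicates.

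**Figure D1:**
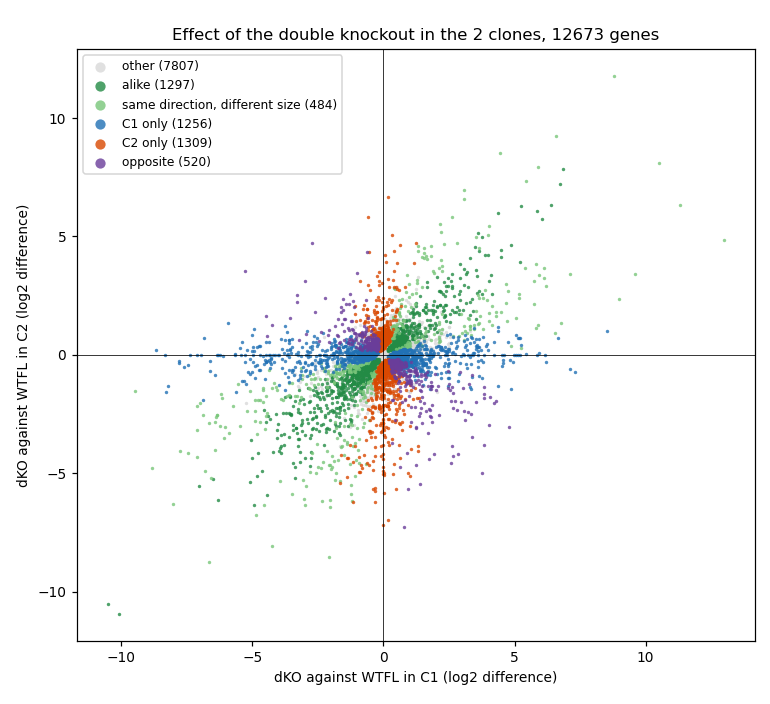
Each point is a tested gene, with its log2 difference between dKO and WTFL cells in C1 on the horizontal axis and in C2 on the vertical axis, coloured by response. The 520 genes of opposite response lie in the upper left and lower right, and genes called in 1 clone lie along the axes.

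A response called in 1 clone could also mean that the gene was silent in the other. Of the C1-only genes, 44 of 628 that rose and 77 of 628 that fell had no C2 library with more than 3 reads. Of the C2-only genes, 4 of 695 and 53 of 614 had no C1 library over 3 reads. The filter bears on lists too: for a member that needed 1 group's libraries to pass it, a higher level in that group is partly fixed by the filter, so the number of such members is given for the lists they weigh on. These numbers were counted over the libraries of the 4 compared groups alone. The filter used all 15 libraries, so such a member may also have passed through the LAP* libraries. For the genes silent in 1 clone the data show a level that moved in 1 clone and no expression above the floor of 3 reads in the other, and a ratio between the effects is not defined. On the recovered reads edgeR, unlike limma, did not call the difference for some genes named further on (Ear1, Gzmb, Lox, Ifit1, Il1a, Cfb, As3mt, Dnaja4, Zcchc14, Il1rl1, Flt3, Cebpg, Oasl2, Rtp4, Nlrc5 and Il5ra), and DESeq2 did not for Lox, Il1a, Flt3 and Il5ra.

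Chromosome position moved with part of the difference, a pattern noticed after the values were seen. Over the 9930 tested genes with a mean of at least 50 normalized reads, the median effect was -0.03 in C1 and -0.02 in C2 on the log2 scale. On chromosome 1 the median effect in C2 was 0.45, and 385 of 575 genes rose (67%). The same genes had a median of -0.06 in C1. Each of the 3 dKO libraries of C2 showed it, with chromosome 1 medians of 0.47, 0.42 and 0.46 against the mean of the C2 WTFL libraries. Chromosome 10 had a median of 0.29 in C2. When its genes were cut into 8 consecutive parts of equal gene number, the median in C2 was -0.05 and 0.00 in the first 2 parts, up to 53.6 Mb, and between 0.30 and 0.41 in the other 6. On chromosome 3 a shift was seen in 3 consecutive parts, from 95.1 to 135.5 Mb, with medians of 0.52, 0.45 and 0.25 in C2. In C1 it was chromosome 12 that shifted, with a median of 0.32 against -0.09 in C2, and 197 of its 353 genes rose (55.8%). The C1 dKO libraries had chromosome 12 medians of 0.38, 0.28 and 0.30. Smaller shifts were seen on chromosome 8 in C2 (median 0.11) and chromosome 15 in C1 (median 0.09). They were uneven between libraries, with chromosome 8 medians of 0.04, 0.17 and 0.14 in the C2 dKO libraries and chromosome 15 medians of 0.03, 0.11 and 0.10 in the C1 dKO libraries.

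The WTFL lines did not differ in this way: the median of C2 WTFL minus C1 WTFL lay between -0.04 and 0.04 on every chromosome. Chromosomes 1, 8, 10, 12 and 15, whose median effect lay more than 0.1 from that of all genes in a clone, held 23.8% of the tested genes. Chromosome 3, shifted in a part alone, did not meet this limit and is not counted among the shifted chromosomes here or below. They held 54.7% of the genes that rose in C2 alone, among them 207 genes of chromosome 1. They also held 53% of those that fell in C1 and rose in C2, against 18.9% of those that fell in C2 alone. After each library was centred on the median of blocks of 40 neighbouring genes, 386 genes rose in C2 alone in place of 695, and 132 fell in C1 and rose in C2 in place of 251. DNA was not measured in these RNA libraries, and the ATAC-seq of the study was not used here. The part of gene dosage in these shifts was not tested.

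**Figure D2:**
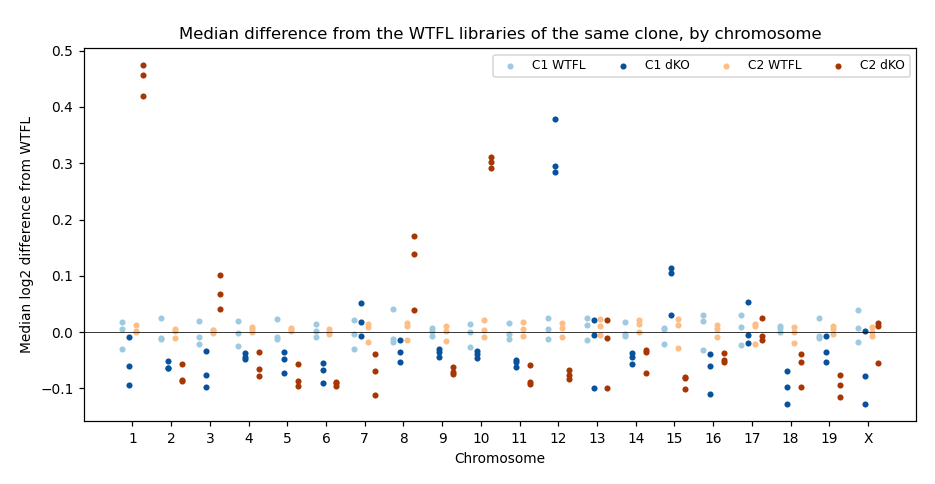
Median over genes of the log2 difference of each library from the mean of the WTFL libraries of its clone, by chromosome, with WTFL libraries set against the other WTFL libraries of their clone. The C2 dKO libraries stand apart on chromosomes 1 and 10, at 0.42 or more and 0.29 or more, and the C1 dKO libraries on chromosome 12, at 0.28 or more.

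Interferon-stimulated genes fell in C1, and few of them moved in C2. They are switched on by type I or type II interferon, and many encode antiviral proteins. All 38 tested of the 39 listed fell in C1 (19.9% of all genes did), whereas in C2, 3 fell and 2 rose. The difference was called for 35, always towards C2, against 15.1% of all genes, and 32 fell in C1 alone. The median effect was -4.54 in C1 and -0.12 in C2 with genes absent from a group set at their bound, against -0.01 and -0.03 over all tested genes. Of the 38 genes, 14 did not pass the filter without the C1 WTFL libraries, so their fall in C1 is partly fixed by it. Of the other 24, 24 fell in C1, 2 fell and 2 rose in C2, and 21 differed, all towards C2.

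The levels showed where the difference arose. Isg15 (chromosome 4, 156199424 to 156200818), a ubiquitin-like modifier, had 2038, 1081 and 171 normalized reads in the C1 WTFL libraries and 7.93, 7.34 and 4.41 in the C1 dKO libraries. In C2 it had 8.96, 15.7 and 9.16 in WTFL and 8.37, 7.78 and 10.7 in dKO libraries. The C1 WTFL libraries thus lay above all 9 others, and they also lay far apart among themselves, with the lowest in replicate 3. Ifit1 (chromosome 19, 34640871 to 34650009), which binds viral RNA caps, had 1900, 799 and 172 in C1 WTFL and at most 3.15 in any other library of the 4 groups. Usp18, the protease that removes ISG15 and dampens the interferon receptor, had 2359, 1181 and 277 in C1 WTFL and 5.66, 16.8 and 27.4 in C1 dKO libraries. Its levels in C2 were 2.99, 0 and 1.83 in WTFL and 8.37, 2.92 and 4.29 in dKO libraries, which overlap. Irf7, a transcription factor of the interferon response, had 2350.2 ± 1796 in C1 WTFL, 36.2 ± 5.69 in C1 dKO, 12.7 ± 2.52 in C2 WTFL and 16.3 ± 5.61 in C2 dKO cells. Oasl2 and Rtp4 were 247-fold lower and 329-fold lower in C1 dKO cells (adjusted p = 7.2e-07 and 1.1e-07, limma), and had at most 1.99 normalized reads in any C2 library.

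Because these genes were already low in C2 WTFL cells, a fall there could hardly be seen: 12 of the 38 had no C2 WTFL library over 3 reads, and the median level was 16.4 normalized reads against 1047 in C1 WTFL cells. The gap between these levels is also partly fixed by the filter: 14 of the 38 did not pass it without the C1 WTFL libraries, and 17 did not pass it on the C2 libraries. Gbp3 and Ifi47, GTPases best known from the response to interferon-γ, behaved otherwise. Gbp3 had 700 ± 351 and 34.7 ± 11.4 in C1 WTFL and dKO cells and 244 ± 59.3 and 13.5 ± 4.06 in C2, a fall of 20.2-fold and 18.2-fold. Ifi47 fell 8.14-fold in C1 and 13.8-fold in C2. Neither difference was called (95% intervals -0.91 to 1.16 and -1.82 to 0.63). Slfn5 and Epsti1 responded in opposite directions. Slfn5 had 5802, 3494 and 758 in C1 WTFL and 86.1, 113 and 139 in C1 dKO libraries, but 5.98, 11.5 and 11 and 42.9, 27.2 and 25.7 in those of C2. The count of 35 differences was 22 in edgeR and 32 in DESeq2 on the recovered reads, and 29 to 35 with each library left out in turn.

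Promoters are shown for the interferon-stimulated response element, the sequence through which type I interferon acts on these genes. The letters GAAA, any 2 bases and GAAA again were searched on both strands from 250 bases before to 50 bases after the RefSeq start sites of GRCm38.p6 (mm10), overlaps allowed. It was found for 18 of the 27 listed genes with a promoter in the table (66.7%), for 66 of 476 genes that fell in C1 alone (13.9%) and for 9 of 467 that fell in C2 alone (1.93%). Over all 9422 tested genes with a promoter the share was 3.97%. A match is a stretch of letters and not a measured binding site. The stretches of 110 bases below lie upstream of the start sites of Ifit1 at chr19:34640754-34640863 (plus strand), Rsad2 at chr12:26456513-26456622 (minus strand) and Isg15 at chr4:156200825-156200934 (minus strand), written 5′ to 3′ along the gene, with matches on either strand in capitals and overlapping matches run together:
Ifit1 promoter: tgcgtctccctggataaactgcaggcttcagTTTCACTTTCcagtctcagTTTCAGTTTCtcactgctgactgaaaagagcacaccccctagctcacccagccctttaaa
Rsad2 promoter: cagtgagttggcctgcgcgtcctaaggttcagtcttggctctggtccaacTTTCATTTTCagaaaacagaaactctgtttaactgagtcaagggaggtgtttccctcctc
Isg15 promoter: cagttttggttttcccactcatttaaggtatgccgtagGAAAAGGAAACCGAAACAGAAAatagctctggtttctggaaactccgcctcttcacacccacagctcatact

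Genes of the MHC class I pathway, which loads peptides for display to cytotoxic T cells, went the same way. Of 19 tested, 17 fell in C1, against 19.9% of all genes, and in C2, 5 fell and 3 rose, close to the 20.1% and 17.4% of all genes. The difference was called for 14, all more positive in C2 (background 15.1%), with a median effect of -1.34 in C1 and 0.05 in C2. B2m (chromosome 2, 122147686 to 122153083), the invariant light chain, had 22335, 21022 and 13089 normalized reads in C1 WTFL and 4619.6, 3840 and 4087 in C1 dKO libraries, with no overlap. In C2 it had 1819, 2184 and 2254 and 2475, 2115 and 2539.9, which overlap, and the effects differed by 2.32 (standard error 0.22, adjusted p = 1.8e-06, limma). Psmb8, a subunit of the immunoproteasome, fell 2.22-fold in C1 (adjusted p = 0.00041, limma) and rose 1.88-fold in C2 (adjusted p = 0.0018, limma). The peptide transporter gene Tap1 fell 3.29-fold in C1 and was called in neither direction in C2 (adjusted p = 0.42, limma). Nlrc5, the transactivator of class I genes, fell in both clones, 122-fold in C1 and 8.52-fold in C2, by amounts that differed (adjusted p = 0.0025, limma), though edgeR did not call that difference (adjusted p = 0.11). The nonclassical genes H2-Q4 and H2-Q7 fell alike in both clones, H2-Q4 from 190.4 ± 109.7 to 0.993 ± 1.05 in C1 and from 112 ± 20.6 to 2.07 ± 1.09 in C2. H2-Q genes are near-identical copies of each other, so their shares of the reads are uncertain.

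**Figure D3:**
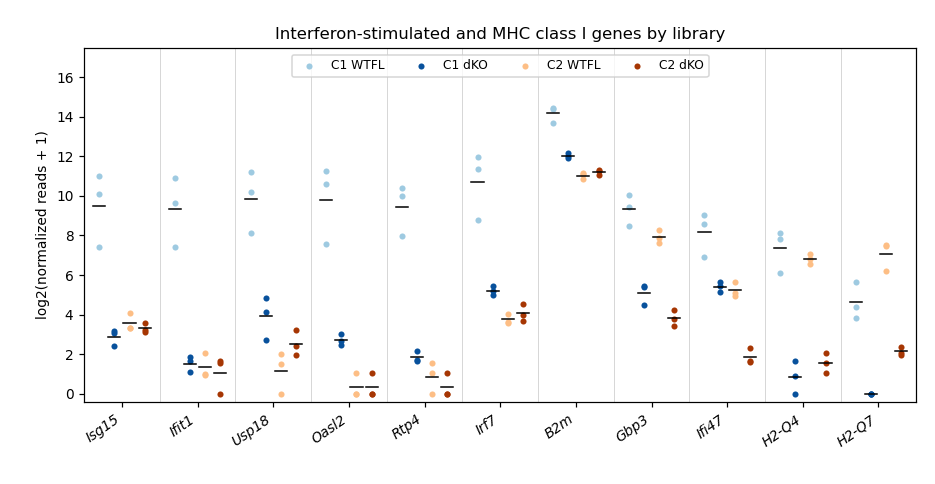
Level of 11 genes in each library as log2(normalized reads + 1), with the mean of each group as a bar. The 3 C1 WTFL libraries lie above all others for Isg15, Ifit1, Usp18, Oasl2, Rtp4, Irf7 and B2m, whereas Gbp3, Ifi47, H2-Q4 and H2-Q7 were lower in dKO than in WTFL cells of both clones.

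Eosinophil genes were expressed most highly in C1 dKO cells. The median level of the list was 0 normalized reads in C1 WTFL, 499.8 in C1 dKO, 0.917 in C2 WTFL and 5.77 in C2 dKO cells. Of the 9 tested members of 11 listed, 7 would not have passed the filter on WTFL libraries and 4 did not pass it without the C1 dKO libraries, so that their rise in C1 is largely fixed by the filter and the counts are a description. All 9 were called higher in C1 (all genes 17.1%), and in C2, 6 were called higher and 1 lower (all genes 17.4% and 20.1%). The difference was called for 8, all towards C1 (all genes 14.3%), with nothing read from these shares. Of the 5 that passed with any 1 group left out, 5 rose in C1, 4 rose and 1 fell in C2, and 4 differed towards C1. In bulk RNA a change in the number of cells of a type and a change of RNA per cell cannot be told apart. The median effect, with genes at 0 in a group set at their bound, was 6.72 in C1 and 2.12 in C2. Prg2 (chromosome 2, 84980461 to 84983632), the major basic protein of eosinophil granules, was at 0 in all C1 WTFL libraries and at 10159, 9403 and 5479.8 in the C1 dKO libraries. In C2 it had 2.99, 2.1 and 7.33 in WTFL and 104, 156 and 153 in dKO libraries. The dKO lines thus differed in level although the WTFL lines of both clones were near 0. It was at least 2079.5-fold higher in C1 and 33.3-fold higher in C2. Epx, the eosinophil peroxidase, went from 0 in each C1 WTFL library to 3554, 2904 and 1609 in C1 dKO and from at most 2.75 to 92.1, 149 and 135 in C2. Prg3, a homolog of Prg2, had 783 ± 176 in C1 dKO and 16.6 ± 7.02 in C2 dKO cells. Il5ra, the receptor chain for the eosinophil growth factor IL-5, was absent from all WTFL libraries and had 53.8 ± 12.5 and 3.45 ± 0.736 in C1 and C2 dKO cells. The ribonuclease gene Ear1 reached 648, 441 and 178 in C1 dKO and at most 2.92 in C2 dKO libraries, though the Ear genes are close paralogs and may share reads. Siglecf, a surface lectin of eosinophils, rose alike, 4.44-fold in each clone, with a difference of -0.03 (95% interval -0.64 to 0.59). On the recovered reads edgeR called 3 of the 9 differences and DESeq2 6.

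Neutrophil genes of late granules and surface also differed towards C1. Of 20 tested, 14 rose and 2 fell in C1, and 5 rose and 5 fell in C2 (rises in 17.1% and 17.4% of all genes). The difference was called for 16, 13 of them more positive in C1 (background 14.3%). The median effect, with the gene at 0 in a group set at its bound, was 2.06 in C1 and 0.27 in C2. Ltf (chromosome 9, 111019271 to 111042767), lactoferrin of specific granules, had 37.5, 46 and 30.6 normalized reads in C1 WTFL and 3292, 3655 and 3941 in C1 dKO libraries. In C2 it had 226, 683 and 744 in WTFL and 992, 968 and 827 in dKO libraries, so it rose 95.5-fold in C1 and 1.69-fold in C2. Camp, the cathelicidin, had 549.9, 560.1 and 775 and 8281, 7001 and 7729 in C1, and overlapping levels of 543, 1094 and 1278 and 1221, 1019 and 885 in C2. Ngp, another granule protein, rose 10.8-fold in C1, to the level that C2 had before and after the knockout (11832 ± 740.3 in C1 dKO, 10331 ± 3605 in C2 WTFL and 10609 ± 3266 in C2 dKO cells).

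Of the 20 genes of the same list, 3 rose in C1 and fell in C2 (2.12% of all genes). Cd177 (chromosome 7, 24743983 to 24760311), a neutrophil surface glycoprotein, had 308, 459 and 346 in C1 WTFL and 2507, 2419 and 2874 in C1 dKO libraries. In C2 it had 836, 1984 and 1793 in WTFL and 340, 289.7 and 236 in dKO libraries, and the effects differed by -5.15 (standard error 0.34, adjusted p = 4.2e-08, limma). Ly6g, the antigen that defines mouse neutrophils, was 19.8-fold higher in C1 and 3.7-fold lower in C2 dKO cells (adjusted p = 4.1e-07 and 0.0012, limma). Retnlg, a neutrophil resistin-like gene, had 17.1 ± 9.28 in C1 dKO and 0 in C1 WTFL cells, but 45.5 ± 24 in C2 WTFL and 4.5 ± 1.69 in C2 dKO cells. The protease genes Mmp8 and Mmp9 rose alike, 3.74-fold and 3.66-fold for Mmp8, with differences bounded by -1.30 to 1.30 and -2.19 to 0.67.

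The family of C/EBP proteins, C/EBPε included, binds variants of TTGCNNAA, and this sequence was searched in the same promoter windows on both strands, overlaps allowed. It was found for 9 of 18 late granule genes with a promoter (50%) and for 10.3% of all tested genes with one. Among response groups the share was 15.4% for genes that fell and 14.1% for genes that rose in both clones by unequal amounts, 13.7% for genes that fell alike, 10.5% for those that rose in C1 alone and 8.35% for those that rose in C2 alone. Ltf at chr9:111019166-111019275 (plus strand), Ngp at chr9:110419698-110419807 (plus strand) and Ly6g at chr15:75155011-75155120 (plus strand) are shown as genes of the list that hold a match and whose effects differed between the clones, each 5′ to 3′ along the gene and upstream of the start, with the match in capitals:
Ltf promoter: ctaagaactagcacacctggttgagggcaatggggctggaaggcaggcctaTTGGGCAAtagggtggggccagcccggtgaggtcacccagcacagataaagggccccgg
Ngp promoter: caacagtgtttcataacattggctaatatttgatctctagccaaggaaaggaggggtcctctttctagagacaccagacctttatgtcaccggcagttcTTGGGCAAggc
Ly6g promoter: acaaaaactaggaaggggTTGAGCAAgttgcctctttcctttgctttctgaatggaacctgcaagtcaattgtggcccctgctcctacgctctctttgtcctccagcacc

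**Figure D4:**
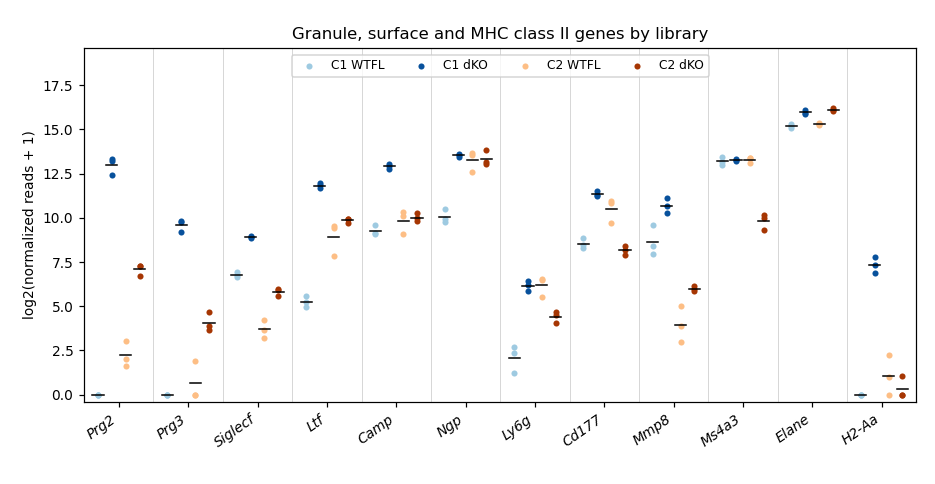
Level of 12 genes in each library as log2(normalized reads + 1), with the mean of each group as a bar. Prg2, Prg3 and H2-Aa were at 0 in C1 WTFL and high in C1 dKO libraries, Cd177 and Ly6g moved in opposite directions in the clones, Ms4a3 fell in C2, and Elane and Siglecf rose in both.

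Primary granule genes mark promyelocytes. Of 12 tested, 6 rose and 1 fell alike (4.02% and 6.21% of all genes), and 4 differed in effect (background 29.4%). After centring by neighbouring genes and in DESeq2, 6 differed, and centring moved the median effect in C2 from 0.37 to 0.04. Elane rose 1.7-fold in C1 and 1.74-fold in C2, and Prtn3, proteinase 3, rose 1.27-fold and 1.38-fold. The 95% intervals of the difference, -0.30 to 0.37 and -0.21 to 0.45, were narrow for both. Elane (chromosome 10, 79886247 to 79888215) and Prtn3 (chromosome 10, 79874476 to 79883174) lie in the stretch that was shifted in C2, and the rise of Prtn3 in C2 was not called after centring by neighbouring genes (adjusted p of at most 0.57). The rise of Elane in C2 and of Prtn3 in C1 was not called under quantile normalization (adjusted p = 0.14 and 0.096, limma). The call of Prtn3 in C1 was lost without C1 WTFL replicate 1, C1 WTFL replicate 2 or C1 dKO replicate 2 (adjusted p of at most 0.076, limma). Ms4a3, a membrane protein of granulocyte and monocyte progenitors, differed: it had 9199, 8216 and 11209 in C1 WTFL and 10092, 10053 and 9482 in C1 dKO libraries, but fell from 10665, 8788 and 10469.6 to 1000.1, 1129.5 and 636 in C2. Cathepsin G (Ctsg) fell 2.64-fold in C2 and was not called in C1 (adjusted p = 0.79, limma), whereas Ctsc, the protease that activates granule enzymes, fell 4.2-fold in C1 and was not called in C2 (adjusted p = 0.95, limma).

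MHC class II genes encode the presenting molecules of dendritic cells and macrophages. Their median level was 23.6 normalized reads in C1 WTFL and 98.2 in C1 dKO cells, 1.55 in C2 WTFL and 9.24 in C2 dKO cells, and 4 of 9 had no C1 WTFL library over 3 reads. Of 9 tested, 8 rose in C1 and 3 in C2 (all genes 17.1% and 17.4%), and 7 differed towards C1 (all genes 14.3%). However, 4 did not pass the filter without the C1 dKO libraries, so their rise and the higher median level in C1 dKO cells are partly fixed by it. Of the other 5, 4 rose in C1 and 3 differed towards C1. H2-Aa had 0 in each C1 WTFL library, 116, 159 and 215 in C1 dKO and at most 3.66 in any C2 library. Ciita, the master transactivator of class II genes, had 37.8 ± 14.7 in C1 dKO cells, none in C1 WTFL and a mean of at most 0.717 in C2. Cd74, the invariant chain, rose in both clones, 12.1-fold and 9.67-fold, though at levels of 739 ± 245 and 12.7 ± 1.96 in dKO cells. Of 10 mast cell and basophil genes, 8 rose in C1 and 4 in C2, against the same shares of all genes, and 6 differed towards C1 (in either direction 7, and 4 in edgeR). Of the 7 of these that passed the filter with any 1 group left out, 6 rose in C1, 4 rose in C2 and 4 differed towards C1. Hdc, which makes histamine, had 38.8, 34.3 and 30.6 and 1318, 1305 and 1184 in C1 and 4.98, 19.9 and 10.1 and 45, 85.5 and 52.6 in C2. Ms4a2, a chain of the IgE receptor, rose 2.07-fold in C1 and fell 7.63-fold in C2. Gzmb and Il1rl1 were found in C1 dKO cells at 102 ± 21.8 and 17.5 ± 1.51 normalized reads and had a mean below 1 in each of the other 3 groups.

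Monocyte and inflammatory genes were called lower more often than all genes in both clones, and fewer of them fell in C2 than in C1. Of 26 tested monocyte and macrophage genes, 22 fell and 1 rose in C1, 10 fell and 4 rose in C2 (falls in 19.9% and 20.1% of all genes), and the effects differed for 10 towards C2 and 4 towards C1 (all genes 15.1% and 14.3%). The median effect was -1.47 in C1 and -0.40 in C2, and the median level in WTFL cells was 1163 normalized reads in C1 and 164 in C2. Fcgr1, the high-affinity IgG receptor, had 1199, 976 and 541 in C1 WTFL and 113, 126 and 146 in C1 dKO libraries, while in C2 it rose from 1, 2.1 and 0.92 to 48.1, 65.1 and 68.7. Adgre1, which encodes the macrophage antigen F4/80, had 2596 ± 412 in WTFL and 1638 ± 187 in dKO cells of C1, against 293 ± 112 and 1421 ± 377 in C2. F13a1, a coagulation factor chain made by monocytes, fell in both, 2.26-fold and 37.2-fold, and more so in C2 (adjusted p = 1.6e-06, limma). Mpeg1 and Cd68 fell alike.

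Among NF-κB genes and their feedback inhibitors, 17 of 19 fell in C1 (19.9% of all genes did) and 9 in C2 (20.1%), where 1 rose, with 10 effects more positive in C2 and 1 more positive in C1, against the same shares of all genes (15.1% and 14.3%). Nfkbiz, an inducible co-regulator, had 561, 684 and 281 and 36.2, 37.8 and 30 in C1 and 26.9, 37.8 and 27.5 and 32.4, 17.5 and 29 in C2. Nfkbia, which encodes the inhibitor IκBα, fell alike, 2.29-fold and 1.81-fold. Of 26 cytokine and chemokine genes, 19 fell and 1 rose in C1, 10 fell and 1 rose in C2, and 10 differed towards C2 and 3 towards C1, again against 15.1% and 14.3% of all genes (9 in either direction in edgeR and in DESeq2). Without the C1 WTFL libraries 10 of the 26 did not pass the filter, and of the 16 that passed with any 1 group left out, 11 fell in C1, 9 fell in C2, 5 differed towards C2 and 3 towards C1. Il1a went from 144, 449 and 171 in C1 WTFL to 0 in C1 dKO libraries and was at or under 3 reads throughout C2. Ccl6 and Ccl3 fell in both clones, Ccl6 from 2231 ± 1079 to 198 ± 7.09 in C1 and from 5366 ± 2009 to 179 ± 147 in C2. Of the 20 Toll-like receptor pathway genes 7 differed, near the 29.4% of all genes, and Irak3, an inhibitory kinase of that pathway, fell 16.1-fold in C1 from 48.6 ± 14.6 but had 472 ± 36.3 in WTFL and 725 ± 47.7 in dKO cells of C2. Of the 17 inflammasome genes 5 differed, also near that share (3 differed without C1 WTFL replicate 1 or C2 WTFL replicate 3), and Naip2 and Naip5 fell alike. The call of Naip5 in C2 was lost without C1 WTFL replicate 1, C2 WTFL replicate 2, C2 WTFL replicate 3, C2 dKO replicate 2 or C2 dKO replicate 3 (adjusted p of at most 0.17, limma) and with no filter, under quantile normalization, in DESeq2 or after centring by neighbouring genes (adjusted p of at most 0.093). Of 24 NADPH oxidase and Fc receptor genes 9 differed, all towards C2 (all genes 15.1%), 4 of them on the shifted chromosomes, and 7 after centring. Cybb, the catalytic oxidase subunit, fell from 10786 ± 687 to 1768 ± 200 in C1 and had 201 ± 92.2 and 135 ± 29.8 in C2. Tyrobp rose alike.

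Of 18 tested stem and progenitor genes, 12 rose in C1 and 13 in C2 (17.1% and 17.4% of all genes), 5 of them alike (4.02% of all genes), and the difference was called for 8 towards C2 and 2 towards C1 (background 15.1% and 14.3%). Of the 16 that passed the filter with any 1 group left out, 11 rose in C1 and 12 in C2. The median effect was 0.86 in C1 and 1.63 in C2. Erg, a transcription factor of stem cells, had 99, 121 and 92.7 and 334, 301 and 289 in C1 and 8.96, 24.1 and 13.7 and 376, 331 and 358 in C2, so that the dKO lines came to lie close together from unequal starts. Flt3, a receptor tyrosine kinase of progenitors, had 62.2 ± 24.8 in C1 dKO and 304 ± 45.7 in C2 dKO cells and a mean below 1 in both WTFL lines, and its difference was not called with a pseudocount of 0.1, in edgeR or in DESeq2 (adjusted p of at most 0.79). Angpt1, a ligand made by progenitors, rose 4.73-fold in C1 and 14.8-fold in C2. Cd34, a progenitor surface antigen, reached 2623 ± 199 and 6365 ± 543 in C1 and C2 dKO cells. It lies on chromosome 1. Myb rose alike, 1.43-fold and 1.63-fold.

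Of the 19 Hoxa and MLL partner genes, 6 differed, near the 29.4% of all genes, and all of them towards C2 (all genes 15.1%). Pbx3, a cofactor of HOXA9, rose 1.83-fold in C1 and 6.24-fold in C2. Jmjd1c, a histone demethylase family member on chromosome 10, fell 1.75-fold in C1 and rose 1.7-fold in C2. Hoxa7 rose in C2 alone, 1.47-fold. Of 7 genes of the C/EBP family and the Tribbles regulators 3 differed, and 2 after centring by neighbouring genes. Cebpd rose in C1 alone, 1.64-fold, and Cebpg and Cebpz in C2 alone, 1.99-fold and 1.64-fold. The called difference of Cebpg was lost without C1 WTFL replicate 1, C1 WTFL replicate 2, C1 dKO replicate 2, C2 WTFL replicate 1, C2 WTFL replicate 2, C2 WTFL replicate 3, C2 dKO replicate 1 or C2 dKO replicate 3 (adjusted p of at most 0.11, limma) and with a pseudocount of 0.1, with no filter, under quantile normalization, in the fit of 12 libraries or in edgeR (adjusted p of at most 0.089). Centring by neighbouring genes removed the difference of Cebpz (log2 -0.028). All 8 tested lymphoid genes of 24 listed differed in effect, 6 towards C2 (all genes 29.4%, and 15.1% towards C2), but 3 did not pass the filter without the C1 WTFL libraries, and of the other 5, 3 differed towards C2 and 2 towards C1. Bcl11a, a transcription factor of B cell progenitors, had 427, 435 and 372 in C1 WTFL libraries, none in C1 dKO libraries and at most 2.09 in any C2 library. Of 10 erythroid and megakaryocyte genes, 3 differed towards C2 and 3 towards C1 (all genes 15.1% and 14.3%), while of the 6 that passed the filter with any 1 group left out, 3 differed towards C2 and 1 towards C1. Car2, carbonic anhydrase 2, rose in C2 alone, from 2.63 ± 0.589 to 27.5 ± 7.25. Itga2b, the platelet integrin chain, rose in both, 77.7-fold and 9.91-fold.

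Ribosome biogenesis genes gave a difference towards C2. Of 44 tested, 23 rose and 0 fell in C2 (all genes 17.4% and 20.1%), while 0 rose and 4 fell in C1 (all genes 17.1% and 19.9%). The difference was called for 20, all towards C2 (all genes 15.1%), 16 of them as a rise in C2 alone (5.48% of all genes). The shifts by chromosome moved with this result: 10 of those 16 genes lie on the shifted chromosomes, and after centring by neighbouring genes 8 rose in C2 alone and 13 differed in effect. The effects were small, with a median of -0.06 in C1 and 0.24 in C2. Ddx21, an RNA helicase of the nucleolus on chromosome 10, had 4583, 4369.8 and 4857 and 3538, 3761 and 3684 in C1 WTFL and dKO libraries and 4857, 4429.9 and 4866 and 8038, 9047 and 8209.8 in C2. Utp20, Nop58 and Rrs1, on chromosomes 10, 1 and 1, rose 2.21-fold, 1.85-fold and 1.73-fold in C2 alone. After centring the differences of Nop58 and Rrs1 were no longer called (adjusted p = 0.065 and 0.23, limma). Of 13 snoRNA host genes 6 differed, all towards C2 (all genes 29.4%, and 15.1% towards C2), and 3 after centring. Gas5 rose 1.27-fold in C1 and 2.28-fold in C2, with no difference called after centring (adjusted p = 0.064, limma), and Zfas1, on chromosome 2, fell 1.31-fold in C1 and rose 1.64-fold in C2.

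Of 81 cytosolic ribosomal protein genes, 29 rose in C1 and 54 in C2 (17.1% and 17.4% of all genes), and none was called lower in either clone. Effects differed for 8, below the 29.4% of all genes, of which 6 lie on the shifted chromosomes, and for 5 after centring. The differences of Rpl7 and Rpl31 turned to log2 -0.093 and -0.040 after centring, and were not called under quantile normalization either. Of 76 oxidative phosphorylation genes 11 differed, again below that share and all towards C2, 8 of them on the shifted chromosomes, and 2 after centring. Of 46 cell cycle genes 6 differed, also below 29.4%, and 7 fell alike (all genes 6.21%). Mcm6 and Mcm3, helicase subunits on chromosome 1, rose 1.66-fold and 1.4-fold in C2 alone, and after centring the difference was called for neither (adjusted p = 0.12 and 0.85, limma) and that of Mcm3 was -0.063 on the log2 scale. Rrm2, a ribonucleotide reductase subunit on chromosome 12, fell 1.57-fold in C2 alone. Of 19 aminoacyl-tRNA synthetase genes 9 differed, above the 29.4% of all genes, 6 of them on the shifted chromosomes, and 5 after centring. Eprs, on chromosome 1, fell 1.16-fold in C1 and rose 1.54-fold in C2.

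Many genes of opposite response belonged to no list, though Ear2 is in the eosinophil list and Sgce, named further on, in the imprinted list. Among those that rose in C1 and fell in C2, Spint1, a protease inhibitor of epithelia, had 21.4, 30.7 and 39.7 and 269.5, 286 and 314 in C1 and 67.7, 79.7 and 80.6 and 15.7, 10.7 and 15 in C2. Endod1, an endonuclease-domain gene, had 4.01, 1.8 and 2.04 and 61.2, 69.2 and 75 in C1 and 171, 165 and 173 and 43.9, 46.7 and 38.6 in C2, so that the dKO lines lay nearer to each other than the WTFL lines. Glyat went from 0 in each C1 WTFL library to 12.7 ± 1.23 in C1 dKO cells, and from 144 ± 50.4 to 4.07 ± 2.69 in C2. Lama5, a laminin chain, Cnn3, a calponin, and Pald1 rose 14.3-fold, 8.25-fold and 6.42-fold in C1 and fell 13-fold, 6.08-fold and 4.16-fold in C2. Arfgef3, Ear2 and Ces2g rose to 42.2 ± 7.44, 499.8 ± 261 and 164 ± 13 in C1 dKO cells and fell to 13.4 ± 1.4, 0.647 ± 1.12 and 0.707 ± 0.612 in C2 dKO cells.

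With the reverse orientation, Col6a3, a collagen VI chain on chromosome 1, fell 63-fold in C1 and rose 12-fold in C2. Cyp26a1, which degrades retinoic acid, had 52.2, 64.9 and 57.1 and 4.53, 9.44 and 6.18 in C1 and 16.9, 12.6 and 9.16 and 115, 123 and 109 in C2. Thbd (thrombomodulin), Slc32a1 (a vesicular transporter) and Sgce (a sarcoglycan) fell 3.37-fold, 6.37-fold and 3.12-fold in C1 and rose 4.15-fold, 3.39-fold and 3.62-fold in C2. Mlph was lost from C1 dKO libraries (9.16 ± 2.69 in C1 WTFL) and rose 5.53-fold in C2. Sgce lies in an imprinted cluster with Peg10, which rose 14.1-fold in C2, to 2798 ± 291, and had 9.58 ± 5.12 in WTFL and 9.49 ± 0.681 in dKO cells of C1.

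Among genes called in C2 alone, Ryr2, an intracellular calcium channel, rose from 37.8, 48.2 and 45.8 to 3162, 2416 and 2213 and had 5.58 ± 0.643 in WTFL and 3.36 ± 0.193 in dKO cells of C1. Epha7, an ephrin receptor, and Gng2, a G protein subunit, rose 25.4-fold and 18.6-fold. Slc8a1, a sodium-calcium exchanger, and Cacnb2, a calcium channel subunit, rose to 158 ± 11.6 and 20.6 ± 6.09 in C2 dKO cells, from a mean below 1 in C2 WTFL. They had 69.3 ± 15.8 and 90.1 ± 20.2 in C1 WTFL cells and 77.9 ± 18.5 and 118 ± 12.3 in C1 dKO cells, so both were expressed in C1 throughout. Ms4a6b rose to 11.4 ± 7.82 in C2, and in C1 had 305 ± 203 in WTFL and 141 ± 5.87 in dKO cells (adjusted p = 0.16, limma). Dock1, a guanine nucleotide exchange factor, was lost in C2: it had 169, 164 and 146 in WTFL and 1.05, 0 and 0 in dKO libraries, while C1 had 799 ± 7 and 904 ± 61.2. As3mt, an arsenic methyltransferase, fell from 143 ± 7.4 to 0 in C2 and was at 0 throughout C1. Casc4, Dnaja4 and Zcchc14 likewise had means of 70.1, 93.7 and 119 in C2 WTFL cells and a mean below 1 in the 3 other groups, and Pomgnt2 fell from 58 ± 8.89 to 1.05 ± 1.05.

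Among genes called in C1 alone, St3gal5, a sialyltransferase, rose from 0, 1.8 and 0 to 156, 206 and 227, with 26.7 ± 8.42 in WTFL and 17.6 ± 7.85 in dKO cells of C2. H2-Eb1 and H2-Ab1, further class II genes, rose to 76.7 ± 32 and 72.1 ± 18.4. Lox, lysyl oxidase, had 337, 518 and 186 in C1 WTFL libraries and was at 0 in every other library. Cfb, complement factor B, and Hsh2d, an adaptor, fell from 226 ± 110 and 205 ± 118 in C1 WTFL to a mean below 1 in C1 dKO cells and had a mean of at most 3.39 in C2.

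The genes that responded alike with the largest effects were at or near 0 in WTFL or in dKO cells of both clones. Hmga2, a chromatin protein of fetal stem cells, was at 0 in all 6 WTFL libraries and had 161, 109 and 84.7 in C1 dKO and 249, 179 and 269 in C2 dKO libraries. Ikzf2, a factor of the Ikaros family, was likewise at 0 in WTFL and had 149, 91.2 and 85.6 and 167, 118 and 167 in dKO libraries. Zbtb16, a zinc finger factor, reached 82.7 ± 11.7 and 228 ± 19.6. Tdrd5, a germ cell gene, had 65.6 ± 4.11 and 53.2 ± 5.58 in dKO cells and none in WTFL cells, and Rab38 and Nrgn rose to 57.3 ± 12.1 and 47.4 ± 8.09 in C1 and 83.3 ± 6.01 and 97.9 ± 16.6 in C2. Of the genes that fell, Matn2, a matrilin, went from 78.6 ± 12.5 in C1 and 71.2 ± 21 in C2 to 0. Lamc1, a laminin chain, fell from 52.4 ± 24.7 to 0.67 ± 0.594 in C1 and from 304 ± 59.9 to 3.14 ± 2.13 in C2, and H2-Q6 fell from 52.7 ± 43.1 and 62.1 ± 38.4 to a mean below 1 in both. The 95% intervals of the difference were 0.17 to 1.82 for Hmga2, -0.80 to 0.70 for Zbtb16 and -0.75 to 1.08 for Matn2, each in log2 units and not adjusted for the number of genes.

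Among metabolic lists the shares of genes with a difference lay on both sides of the 29.4% of all genes. The difference was called for 4 of 31 glycolysis and hypoxia genes, 15 of which fell in C1 and 10 in C2, against 19.9% and 20.1% of all genes (2 differed without C1 WTFL replicate 1, C1 dKO replicate 1, C2 WTFL replicate 3 or C2 dKO replicate 3). Ero1l and Pfkp fell alike, 2.99-fold and 2.35-fold for Ero1l. Slc2a3, a glucose transporter, rose in both, 13.7-fold and 5.47-fold, and the called difference was lost without C2 WTFL replicate 3 (adjusted p of at most 0.058, limma). The difference was called for 3 of 24 sterol synthesis genes (1 differed without C1 dKO replicate 1, C1 dKO replicate 2, C2 WTFL replicate 1, C2 WTFL replicate 2 or C2 dKO replicate 1 and 6 differed without C1 WTFL replicate 3; 1 after centring). For fatty acid synthesis it was 6 of 17 (3 after centring), with Me1 and Acsl4 falling alike and Acsl1 falling 1.37-fold in C1 and rising 1.47-fold in C2. The call of Acsl4 in C1 was lost without C1 WTFL replicate 1, C1 WTFL replicate 2 or C1 dKO replicate 2 (adjusted p of at most 0.073, limma), and that in C2 was lost without C2 WTFL replicate 2, C2 WTFL replicate 3 or C2 dKO replicate 2 (adjusted p of at most 0.12, limma). For cholesterol export and LXR genes it was 6 of 12. Pparg, a lipid-sensing nuclear receptor, fell 33.8-fold in C1 and 2.94-fold in C2, and Plin2 fell alike, 3.24-fold and 3.22-fold. Of 37 lysosome genes 11 fell alike (all genes 6.21%), and 16 differed towards C2 and 3 towards C1 (all genes 15.1% and 14.3%). Of these 19 genes 10 lie on the shifted chromosomes, and after centring 17 differed, 13 of them towards C2. Psap, prosaposin, had 19515, 24621 and 21603 and 4504, 5406 and 5853 in C1 and 3231, 3789 and 4017 and 3419.9, 3438 and 3580.4 in C2, and fell 4.17-fold in C1 alone.

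Among stress and survival lists the share of genes with a difference was near the 29.4% of all genes for ATF4 response, unfolded protein response, BCL2 family and Polycomb genes. ATF4 response genes differed for 8 of 30 (5 differed without C2 dKO replicate 3), unfolded protein response genes for 6 of 20 (1 after centring by neighbouring genes), and p53 targets for 12 of 27 (7 after centring). Phgdh, the first enzyme of serine synthesis, fell 3.38-fold in C1 and had 2189 ± 512 in WTFL and 2078 ± 229 in dKO cells of C2. Hspa5 and Xbp1 fell alike, 1.3-fold and 1.35-fold for Hspa5. Phlda3, a p53 target, fell 3.73-fold in C1 and rose 1.88-fold in C2, and Xpc and Sesn1 rose alike, though the call of Sesn1 in C1 was lost without C1 dKO replicate 3 (adjusted p of at most 0.052, limma) and after centring by neighbouring genes (adjusted p of at most 0.058). BCL2 family genes differed for 5 of 16. Bcl2, on chromosome 1, rose 2.14-fold in C1 and 5.94-fold in C2, whereas Bcl2a1b fell 2.79-fold in C1 and rose 2.78-fold in C2 and shares sequence with its Bcl2a1 paralogs. CDK inhibitors and D cyclins differed for 5 of 15. Ccnd2, a D cyclin, had 1891, 1876 and 1574 and 1105, 1155 and 902 in C1 and 1815, 1425 and 1295 and 2853, 2436 and 2880 in C2, which is opposite. Polycomb genes differed for 9 of 30, led by Cbx6, which rose 7.79-fold in C1 and fell 1.67-fold in C2.

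Signalling and surface lists gave further single genes of opposite response. Cytokine receptors differed for 16 of 29, against 29.4% of all genes. Csf1r, the macrophage growth factor receptor, had 3171, 3646 and 2893 and 696, 945 and 1120 in C1 and 35.9, 36.7 and 65 and 67, 46.7 and 68.7 in C2, and Ifngr1 and Tgfbr2 fell alike, though the fall of Ifngr1 in C1 was not called under quantile normalization (adjusted p of at most 0.058). STAT and SOCS genes differed for 10 of 24, with Jak2 rising alike, 1.88-fold and 1.67-fold. MAPK feedback and immediate early genes differed for 8 of 28, near the share of all genes (4 differed without C1 WTFL replicate 1 and 5 differed without C2 WTFL replicate 2, C2 dKO replicate 1 or C2 dKO replicate 3), and Dusp6, a phosphatase of ERK, fell alike, 3.04-fold and 2.82-fold. Integrins and adhesion genes differed for 9 of 19. Itgal, a leukocyte integrin, rose 1.74-fold in C1 and fell 2.5-fold in C2, and Itgb7 rose alike, 23-fold and 27.2-fold. Insulin-like growth factor genes differed for 7 of 8. Igf1r rose 1.47-fold in C1 and fell 1.66-fold in C2, and Igfbp4 rose alike, 4.82-fold and 5.69-fold, to 9996 ± 414 and 5009 ± 394. TGF-beta and SMAD genes differed for 5 of 20, also near that share (3 differed without C1 WTFL replicate 1, C1 dKO replicate 2, C1 dKO replicate 3 or C2 dKO replicate 1), imprinted genes for 4 of 8, and leukotriene and prostaglandin genes for 8 of 16. Alox5 and Ltc4s, of leukotriene synthesis, rose more in C1, 7.78-fold against 1.88-fold for Alox5, and Lta4h rose alike.

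**Figure D5:**
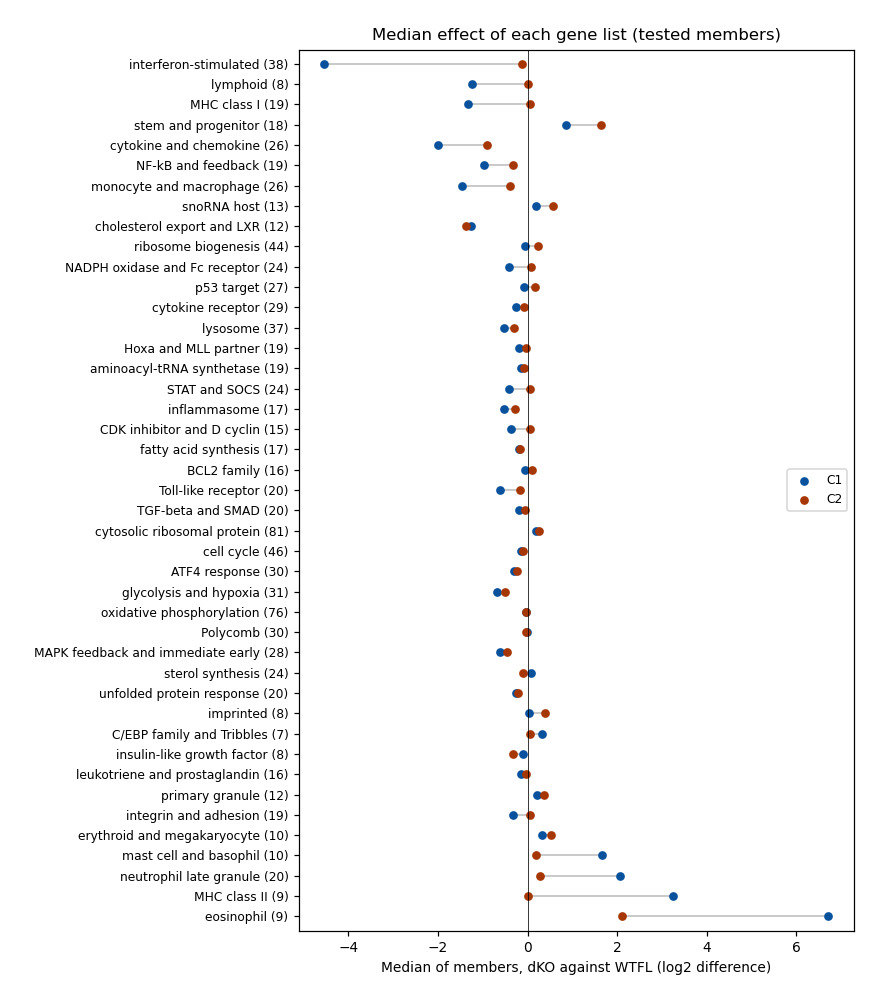
Median log2 difference between dKO and WTFL cells over the tested members of each list, in C1 and in C2, with genes at 0 in a group set at their bound and the number of members in parentheses. Interferon-stimulated genes are farthest apart at the top (-4.54 and -0.12) and eosinophil genes at the bottom (6.72 and 2.12).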

How the data were processed

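The data are RNA-seq of 15 libraries from cells carrying MLL-ENL, of which 12 enter the comparison. Per the labels and the study's methods, the authors aligned stranded paired-end reads to mm10 with STAR 2.5.3a, counted them per gene with HTSeq 0.10.0 and divided the counts by DESeq2 1.26.0 size factors. The deposited signal is therefore a normalized read count per gene. The annotation and strand setting of the counting are not given in the sources used here, so overlapping and antisense genes are uncertain. Rows for reads on no gene (5) held 22.4% to 26.2% of a library and were left out, and 3 columns matched no sample and were not used. Each column holds multiples of 1 step, and all values lay within 0.1 of a whole read, which gave the reads.

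A mean was fitted to each group on log2(normalized reads + 1) by limma 3.58.1 (R 4.3.3) with a trended prior. A group at 0 was set at a floor of 3 reads per library for folds, which are then lower bounds, and no fold is given against 1 to 3 reads. Floors cover counting error only. The fit was tested on simulated counts with 1 mean per gene and changes in C2 dKO libraries alone, unlike these data, where the WTFL lines also differ. The limits of that test were loosened after a stricter one failed, and no rate is read from it. edgeR 4.0.16 and DESeq2 1.42.0 on the recovered reads, other pseudocounts and filters, quantile normalization, the replicate number as a block, fits of 12 libraries and leaving out each library were alternatives. Centring by chromosome neighbourhood was added after seeing the data. The members and lists were chosen with earlier results of these data known. Genes named for a response had no predicted-gene name, a highest group mean of at least 50 normalized reads and non-overlapping libraries in each clone called. For a response in 1 clone those with the largest difference between the clones were taken. For opposite and alike responses the genes were ranked by the smaller of their effects in the clones. Up to 6 members of each list were also named. Camp, Ddx3y, Epx, Irf7, Isg15, Ngp and Rsad2 were named after their values were seen. The results of some genes that met the rule are not reported here. Gene positions are from GENCODE M21 and promoters from RefSeq (GRCm38.p6). Plots were made with matplotlib 3.10.9 in Python 3.11.15.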

Additional observations from a re-analysis of the deposited data

Results flagged for a closer look

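The test of the difference itself called 3720 genes with unequal effects of the double knockout in the clones. Genes named for an opposite response or a response in 1 clone are listed here with the difference of the log2 effect, C2 minus C1. These values are fitted on log2(normalized reads + 1), and where a group was at or near 0 they depend on the pseudocount and are no bound. For genes that rose in C1 and fell in C2 the difference was -8.74 for Glyat, -6.85 for Lama5, -7.85 for Arfgef3, -5.63 for Spint1, -5.45 for Cnn3, -5.15 for Cd177, -4.87 for Ear2, -6.25 for Ces2g, -6.27 for Endod1 and -4.51 for Pald1. With the reverse orientation it was 8.83 for Col6a3, 6.09 for Cyp26a1, 7.48 for Fcgr1, 5.83 for Mlph, 5.54 for Epsti1, 4.42 for Slc32a1, 6.14 for Slfn5, 3.66 for Thbd and 3.43 for Sgce. Among genes that rose in C1 alone it was -8.04 for H2-Aa, -7.73 for St3gal5, -7.53 for Ear1, -6.51 for H2-Eb1, -6.18 for H2-Ab1 and -5.96 for Gzmb, and among those that fell in C1 alone it was 8.88 for Bcl11a, 8.32 for Lox, 7.53 for Ifit1, 7.53 for Hsh2d, 7.46 for Il1a and 7.37 for Cfb. For genes that rose in C2 alone it was 6.50 for Slc8a1, 6.43 for Ryr2, 4.18 for Gng2, 4.01 for Ms4a6b, 3.99 for Cacnb2 and 3.98 for Epha7. Finally, for those that fell in C2 alone it was -7.17 for As3mt, -7.15 for Dock1, -6.15 for Casc4, -5.92 for Pomgnt2, -5.92 for Dnaja4 and -5.86 for Zcchc14. On the recovered reads edgeR did not call Ear1, Gzmb, Lox, Ifit1, Il1a, Cfb, As3mt, Dnaja4 and Zcchc14, all of which had a group or a whole clone at or near 0 reads, and DESeq2 did not call Lox and Il1a.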

How the results depend on the processing

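The number of genes with a difference between the clones was 3720 and ran from 3242 to 3829 over 8 alternatives: other pseudocounts, filters, normalization, 12 libraries, edgeR and DESeq2. Centring by neighbouring genes gave 3077, of which 1426 were towards C2 and 1651 towards C1, and quantile normalization gave 1752 and 1923. With no filter they were 1842 and 1909, and without C1 WTFL replicate 2 they were 1777 and 1797. These 4, and a minimum log2 value of 1, turned the balance of 1910 towards C2 and 1810 towards C1, which is therefore not stable. The number ran from 3124 to 3677 with each library left out in turn. Of 397 recomputed counts, 378 stayed within 1.5 times the reported value. With an absolute log2 value of at least 1 also required, 1661 genes differed, 739 towards C2 and 922 towards C1. Then 147 rose and 261 fell alike, 89 rose and 121 fell by unequal amounts, 299 rose and 357 fell in C1 alone, 137 rose and 277 fell in C2 alone, 77 rose in C1 and fell in C2, and 32 the reverse. Fewer genes meet both limits by construction. Centring by neighbouring genes left 386 genes that rose in C2 alone and 132 that fell in C1 and rose in C2. Without chromosomes 1, 8, 10, 12 and 15, 335 rose alike, 134 rose by unequal amounts, 315 rose in C2 alone and 118 fell in C1 and rose in C2. Chromosome 3, with its shifted part, was kept in these counts. The difference reversed after centring for Cebpz (-0.028), Mcm3 (-0.063), Rpl7 (-0.093) and Rpl31 (-0.040), and none of the other recomputed values of named genes did. For most genes called in 1 clone or with opposite responses these were the differences alone, and Camp, Ddx3y, Epx, Irf7, Isg15 and Ngp were not among them. Of 7763 recomputed values of named genes, 404 no longer passed the threshold. Quantile normalization changed the split of called genes in C1 from 2170 higher and 2516 lower to 2681 and 2052. With the replicate number as a block 3583 genes differed. The numbers were not treated as pairs: deviations of same-numbered libraries correlated from -0.32 to 0.21, over 0.1 in 4 of 18 pairs, and 5 of 12 libraries correlated best with their own number. Depth limits what can be said of genes at or under 3 reads, and 3 libraries a group from 1 line each limit every test to the spread within a line.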
